A study of Homo sapiens with 9 samples.

Results

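SF3B4 marked introns near the 3' splice site in both HEK293 and K562 cells, and 445 introns were marked in every library of both lines. These are 5 SF3B4 libraries, 2 from HEK293 and 3 from K562, of the 54 libraries in the series, each library being 1 RBP in 1 replicate. They were made by 10plex antibody-barcode eCLIP (ABC), in which 10 antibodies with their own DNA barcodes are used in the same lysate and the barcode ligated to an RNA fragment names the RBP. The other 9 RBPs of each pool were DDX3, EIF3G, FAM120A, IGF2BP2, LIN28B, PRPF8, PUM2, RBFOX2 and ZC3H11A, and they served as the control for expression of a gene. An intron was marked in a library when an SF3B4 peak with P below 0.001 and a fold above 8 over the background of the deposited values had its centre in the last 100 nt of the intron, on the same strand. Of 255023 introns of at least 200 nt, 17312 (6.79%) were marked in at least 1 of the 5 libraries.

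SF3B4 is a subunit of SF3b, the part of the U2 snRNP that grips the pre-mRNA beside the branch point. The branch point adenosine lies a short way upstream of the 3' splice site, followed by a pyrimidine-rich stretch and the AG at which the intron ends. PRPF8, a core protein of the U5 snRNP, contacts the 5' splice site and is the other spliceosomal RBP of the pool. SF3B4 crosslinks therefore report on introns that are present as pre-mRNA, and a line that does not transcribe a gene offers no intron to bind.

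K562 is a line of erythroid leukaemia cells, and the HEK293 cells, a line of embryonic kidney cells, are called HEK293T in the sample titles and HEK293XT in the study's methods. Both lines were untreated, grown in the same medium and crosslinked with UV. The labels go against each other in places: the HEK293 samples carry K562 in their cell line field, the third K562 sample is written K563, and the second HEK293 sample has the number of the first in its title. The titles were followed, and the other RBPs of each pool went with them. All 12 markers of K562, such as the globin genes *HBG1* and *HBE1* and the transcription factor *GATA1*, had reads in each K562 pool, against 4 and 3 of the 12 in the HEK293 pools, where their level in the other RBPs summed to 6.95 and 4.15 RPM against 2966 to 3495 in K562. RPM are reads scaled to the total of reads in peaks, of the SF3B4 library or, for the other RBPs, of the 9 libraries together. Reads where annotated genes overlap count for each gene, and *HBG2* and *HBE1* had the same 13 and 3 reads in HEK293. Of the 12 markers of HEK293, 8 and 9 had reads in its pools and 2 to 3 in the K562 pools, with sums of 497 and 512 against 6.11 to 18.4; *SOX2*, *SOX11* and *CRABP1* were at 0 in every pool. No source says that replicates came from separate cultures, so tests measure only the spread between these libraries.

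The last 30 nt of a few introns that the results turn on are given here, as in GRCh38, with the AG of the 3' splice site in capitals and, where there is one, the letters CTNAC that resemble the branch point consensus. The first 4 were marked in all 5 libraries, the next 6 in K562 alone and the last 4 in HEK293 alone.
SNRNP70, chr19:49104604-49104633, plus strand: ctcccctccccctccccacatctgttacAG
DDX17, chr22:38490437-38490466, minus strand: ttgaatttattttgttttgttttttaacAG
LENG8, chr19:54461196-54461225, plus strand: ccgcctttcactccactaatgctgtctcAG
SNRPA1, chr15:101285802-101285831, minus strand: tCTAACagttatgttcttccccctcttaAG
TFRC, chr3:196062646-196062675, minus strand: tacttattagtgttttcccttctcttctAG
EGFL7, chr9:136664662-136664691, plus strand: ggcaCTAACccacaactcctctccaaccAG
BHLHE40, chr3:4981362-4981391, plus strand: caccgCTGACtaaggctcttttccttccAG
NUP214, chr9:131144250-131144279, plus strand: acattttccttcctttttttgtcactgcAG
TXNIP, chr1:145995477-145995506, minus strand: taatggctactcgattttctttcccttcAG
MALAT1, chr11:65506356-65506385, plus strand: aacctaatataactgccttgtctttttcAG
XRCC3, chr14:103711568-103711597, minus strand: atcccagaCTCACcttcccactctttccAG
MTA1, chr14:105465064-105465093, plus strand: ccacccCTCACaccgtgtggtaccccgcAG
CSNK1E, chr22:38314170-38314199, minus strand: CTGACcctcatgttcctgcttcctctgcAG
NFRKB, chr11:129894439-129894468, minus strand: tgtcactcatctagagattattcattgcAG

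The SF3B4 libraries held 203266 and 336803 reads in peaks in HEK293 and 183749, 341768 and 123997 in K562, for replicates 1 onwards. They marked 7591 and 5511 introns in HEK293 (2.98% and 2.16% of all introns) and 2987, 6672 and 5847 in K562 (1.17%, 2.62% and 2.29%). The highest number came from a HEK293 library and the lowest from a K562 library, and the other libraries of the lines overlapped. The background behind the deposited fold differed between the lines: it held at most 1 read at 24.0% and 15.3% of the SF3B4 peaks in HEK293 and at 96.3% to 97.3% in K562. The fewest reads that met both limits were 3 in each HEK293 library and 4, 5 and 3 in K562. Counts with 1 floor of reads for all libraries are therefore given beside the counts with these limits. Only reads in listed peaks were available. A site at 0 is thus one where no peak was listed, which does not show that no read lay there.

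A minority of the introns that a line marked in all its libraries were marked in all libraries of the other line. The 3 K562 libraries all marked 1224 introns and the 2 HEK293 libraries 2329. Of all introns, 445 (0.174%) were marked in all 5 libraries, 407 (0.16%) in all K562 libraries and no HEK293 library, and 963 (0.378%) in both HEK293 libraries and no K562 library. These are 2.57%, 2.35% and 5.56% of the introns marked in any library. The 445 introns were 36.4% of those marked in all K562 libraries and 19.1% of those marked in both HEK293 libraries. Introns with no mark in any library of the other line were 33.3% and 41.3% of these lists. Most introns of each list were thus marked in at least 1 library of the other line. Replicates also agreed only in part: 42.3% of the introns of HEK293 replicate 2 were marked in HEK293 replicate 1. With the limits and 1 floor of 24.2 RPM in every library, which is 3 reads in the shallowest, the counts were 224 in all 5 libraries, 363 in K562 alone and 154 in HEK293 alone, so that the line with more introns of its own was K562. The counts also rest on how many libraries must agree. Without HEK293 replicate 2 or K562 replicate 1, 701 or 690 introns were marked in all remaining libraries. Those restricted to K562 were 663 without HEK293 replicate 1, 1209 without K562 replicate 1 and 743 without K562 replicate 3. Those restricted to HEK293 were 3276 and 4430 without HEK293 replicate 1 or 2. The share of K562 introns marked in all HEK293 libraries kept was highest without HEK293 replicate 2, at 57.3%. The reverse share was then lowest, at 9.23%, and it was 29.6% without K562 replicate 1.

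**Figure D1:**
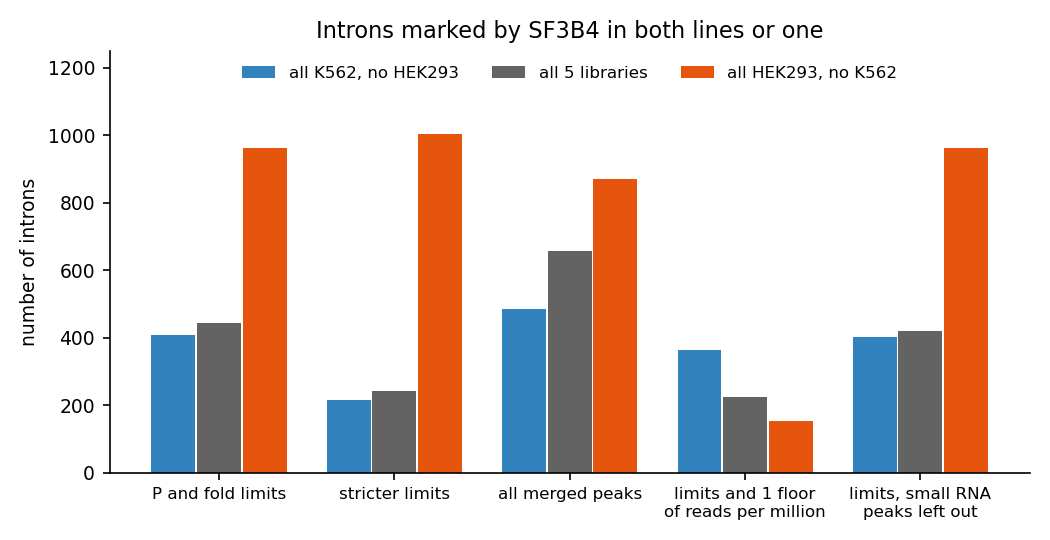
Number of introns (vertical axis) marked by SF3B4 in all 3 K562 and no HEK293 library (blue), in all 5 libraries (grey) and in both HEK293 and no K562 library (orange), for the limits used in the text and 4 other settings. HEK293 has more introns of its own than K562 in each setting shown except the floor of RPM, where it has 154 against 363.

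Libraries of a line shared more introns with each other than with the other line. The introns shared by 2 libraries, divided by those marked in either, were 0.212 to 0.287 of the total in the 4 pairs within a line and 0.126 to 0.190 in the 6 pairs between lines. With all merged peaks, whatever their P and fold, the ranges were 0.1999 to 0.2396 and 0.156 to 0.199. The same was seen for PRPF8 at 5' splice sites, where pairs within a line gave 0.257 to 0.395 and pairs between lines 0.144 to 0.168. Across the 8862 sites with an SF3B4 peak in at least 2 libraries, the log2 levels correlated at 0.288 to 0.426 within a line and at 0.0396 to 0.193 between lines; the points share introns of the same genes and are no replicates.

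A restricted intron was in most cases one without any SF3B4 peak at the site in the other line. This held for 325 of the 407 introns of K562 (79.9%) and 746 of the 963 of HEK293 (77.5%). For the remaining 82 and 217, the other line had a peak that did not meet the limits in any library. At 14 of the K562 introns the mean RPM were at least as high in HEK293, and at 0 of the HEK293 introns the reverse. An intron of *RPL4*, which encodes a protein of the large ribosomal subunit, is one of the 14, with 43 and 113 reads in HEK293 and 17, 26 and 10 in K562. Its peak centres were at -5 and -0.5 nt in HEK293 and -9, -10.5 and -14 nt in K562, at the boundary with the annotated exon. The sequence before this boundary has no pyrimidine-rich stretch. How many of these reads came from spliced RNA was not tested. The intron of *RPL36*, of the same subunit, had 26 and 27 reads in HEK293 and 5, 5 and 6 in K562. In both, HEK293 had the higher reads with no overlap with K562, and its peaks did not meet the limits. An SF3B4 peak of the other line touched the last 200 nt of 31.9% of the K562 introns and 28.6% of the HEK293 introns, so that a part of the restricted sites had SF3B4 nearby, outside the window.

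The introns marked in all 5 libraries with the most reads lay on snoRNAs, the small guide RNAs that are cut from introns of their host genes. The 5 with the highest mean level were in *RPL7A* (at SNORD24), *SNHG1* (SNORD22), *SNHG29* (SNORD65), *SNHG25* (SNORD104) and *RPL4* (SNORD16). The site in *RPL7A* had 463 and 927 reads in HEK293 and 806, 995 and 477 in K562, with peak centres between -100 and -89 nt from the exon. Peaks on annotated small RNAs held 17.9% and 16.5% of the SF3B4 reads in HEK293 and 32.5%, 26.2% and 35.2% in K562, all K562 libraries being above the HEK293 libraries. They touched 24 of the 445 introns marked in all libraries, 6 of the 407 of K562 and 2 of the 963 of HEK293. Without these peaks the 3 counts were 421, 401 and 961.

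Away from small RNAs, the introns with the most SF3B4 in both lines were in *MALAT1*, *SNRNP70*, *SRRM2*, *DDX17* and *LENG8*, chosen after the snoRNA sites had been seen. *SNRNP70* encodes a protein of the U1 snRNP, and its intron had 743 and 555 SF3B4 RPM in HEK293 and 642, 468 and 395 in K562. *SRRM2*, a scaffold protein of nuclear speckles, had 428 and 291 in HEK293 and 337, 301 and 516 in K562. In both introns the lines overlapped. *DDX17*, an RNA helicase, had 777 and 181 RPM in HEK293 and 65.3, 102 and 395 in K562, a wide spread within each line. The nuclear long noncoding RNA *MALAT1*, most of which is not spliced, had 398 and 333 in HEK293 and 833, 1425 and 2726 in K562, with every K562 library above HEK293.

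**Figure D2:**
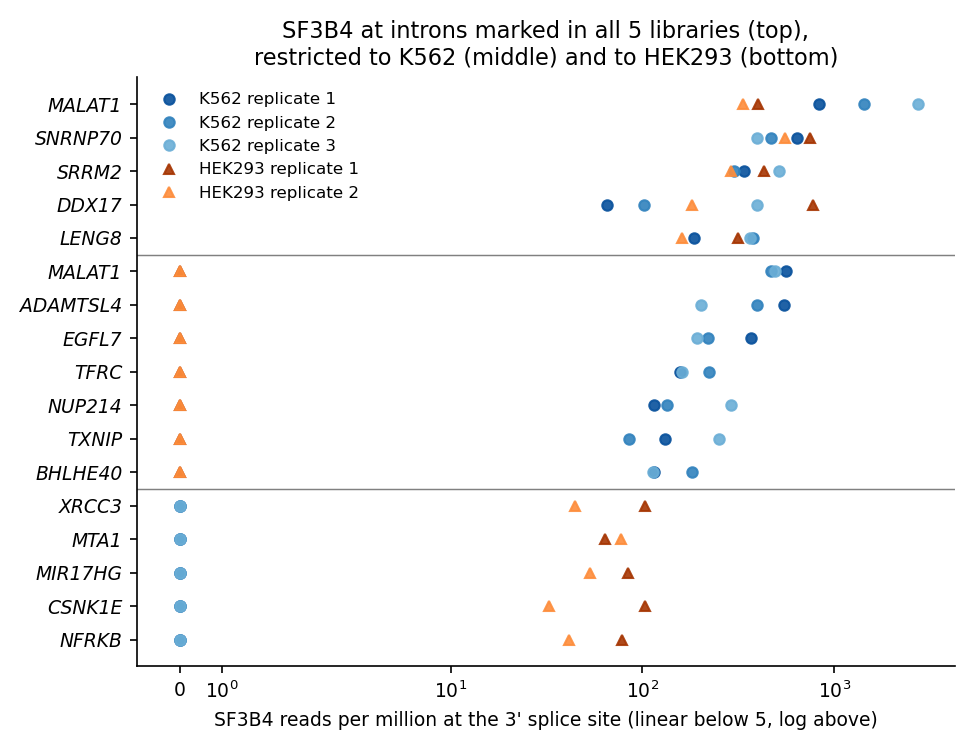
SF3B4 RPM at single 3' splice sites (horizontal axis, linear below 5 and logarithmic above) for K562 (circles) and HEK293 (triangles), 1 symbol per library. The 5 upper introns have reads in every library, the 7 in the middle are at 0 in both HEK293 libraries and the 5 at the bottom are at 0 in all 3 K562 libraries. A value of 0 means that no peak was listed at the site.

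The K562-restricted introns away from small RNAs and with no HEK293 peak at the site were led, by their level, by a second site in *MALAT1*. It had 103, 159 and 61 reads in K562 and 0 in both HEK293 libraries, which had no SF3B4 peak touching the last 200 nt, while the other 9 RBPs had 11994 and 17464 reads in the gene in HEK293. The next were in *ADAMTSL4*, which encodes a secreted protein of the extracellular matrix (100, 135 and 25 reads in K562), and *EGFL7*, a secreted factor of blood vessels (68, 75 and 24). In *ADAMTSL4* the other 9 RBPs had 3 and 7 reads in HEK293 against 1470 to 1739 in K562, so the gene was close to absent from the HEK293 pools. *NUP214*, a protein of the nuclear pore, had 21, 46 and 36 reads, *TXNIP*, a regulator of thioredoxin, 24, 29 and 31, and *BHLHE40*, a transcription factor, 21, 62 and 14. All of these were at 0 in both HEK293 libraries, and in each gene the other 9 RBPs were lower in HEK293, with a log2 of HEK293 over K562 of -2.34 to -8.46. In *NUP214* a HEK293 replicate 1 peak outside the window touched the last 200 nt with 5 reads.

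Over the 963 HEK293-restricted introns, the median level was 24.6 and 14.8 RPM in the HEK293 libraries, with at most 187 and 104 reads. Among those with no K562 peak of any kind at the site and with reads of the other RBPs in every K562 pool, the 5 with the highest level were in *XRCC3*, a gene of homologous recombination repair, with 21 and 15 reads, *MTA1*, a subunit of the NuRD complex, with 13 and 26, *MIR17HG*, the host transcript of a microRNA cluster, with 17 and 18, *CSNK1E*, a casein kinase, with 21 and 11, and *NFRKB*, a subunit of the INO80 complex, with 16 and 14. All 3 K562 libraries were at 0 at each site, though in *MTA1* K562 replicate 1 had 3 reads in the last 200 nt. The other 9 RBPs were higher in HEK293 by 1.24 to 3.27 on the log2 scale in 4 of the genes. *MIR17HG* was the exception, at -0.74, with 2620 and 2343 reads of the other RBPs in HEK293 and 1058, 1606 and 2788 in K562. Its SF3B4 peak centres were at -32 nt in HEK293 replicate 1 and -87 nt in replicate 2, so the replicates did not share a peak position there.

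The gene most often restricted to K562 was *TFRC*, the transferrin receptor, through which erythroid cells take up iron. SF3B4 marked 12 of its 26 annotated 3' splice sites in each K562 library and 2 and 1 in HEK293. Of these, 8 were restricted to K562 and 1 was marked in all 5 libraries. The shared intron had 10 and 5 reads in HEK293 and 32, 91 and 24 in K562. The restricted intron with the most RPM had 29, 76 and 20 reads in K562 and 0 in HEK293. Over all its sites *TFRC* had 68.9 and 32.7 SF3B4 RPM in HEK293 and 903, 1589 and 1040.35 in K562. The other 9 RBPs of the pools had 204 and 157 RPM in the gene in HEK293 and 735, 827 and 1518 in K562, which is a log2 difference of -2.50. One restricted intron, with 6 reads in HEK293 replicate 2, had a peak there that did not meet the limits. None of the 9 sites passed in the fits over all sites described further on.

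**Figure D3:**
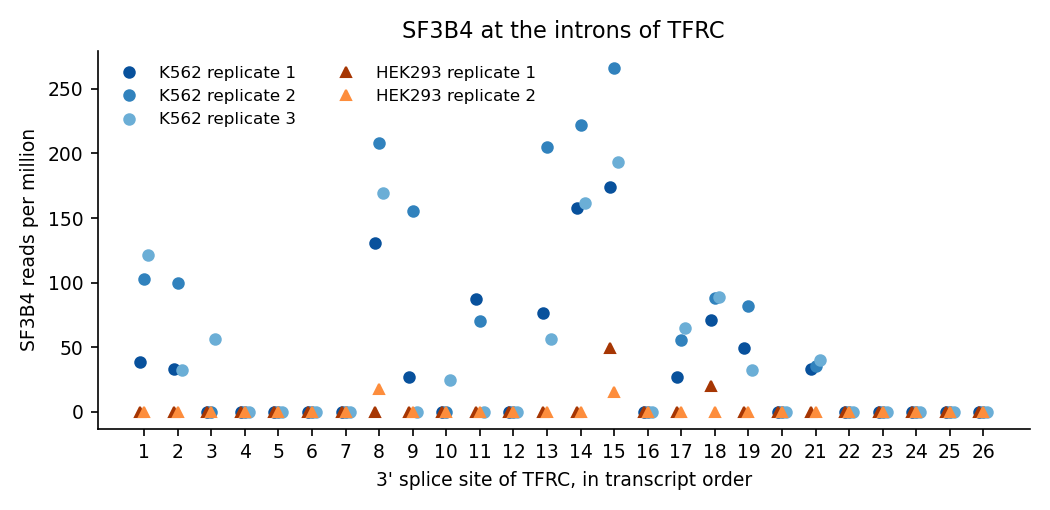
SF3B4 RPM (vertical axis) at the 26 annotated 3' splice sites of *TFRC* in transcript order (horizontal axis), for each K562 library (circles) and HEK293 library (triangles). HEK293 has reads at 3 sites, and each K562 library has them at 12.

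Genes after *TFRC* with the most K562-restricted introns were *ADAMTSL4* with 7, *PICALM*, a gene of clathrin-coated vesicles, with 6, and *NUP214* and the unnamed transcript GS1-600G8.3 with 4 each. For HEK293 they were *DYNC2H1*, a dynein of cilia, and *HELLS*, a chromatin remodeller, with 4 each. The restricted introns were spread over many genes: the 407 introns were in 338 genes and the 963 in 854, with 45 and 94 genes holding more than 1.

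In 21 genes, 1 intron was restricted to K562 and another, not always adjacent, to HEK293. Genes with K562-restricted introns were 338 and those with HEK293-restricted introns 854. *ATG2B*, which acts in autophagy, had 5, 15 and 5 reads at 1 intron in K562 and 0 in HEK293, and 9 and 15 reads at another in HEK293 and 0 in K562. *RBM39*, a splicing factor, had 6, 5 and 5 reads at 1 intron in K562 and 11 and 15 at another in HEK293, with no peak listed at the site in the other line for each. In both genes the lines did not overlap at either intron, but at the second intron of *RBM39* 2 K562 libraries had 7 and 13 reads outside the window, in the last 200 nt. In *FASN*, fatty acid synthase, *DHX9*, a helicase, and *TOMM40*, a channel of the mitochondrial outer membrane, the K562 intron also had HEK293 reads that missed the limits, at 17 and 27, 11 and 0, and 8 and 11 reads. In *DHX9* and *TOMM40* this intron had mean RPM of 26.9 and 40.8 in K562 and 27.1 and 36.0 in HEK293. The HEK293 introns of these 2 genes also had K562 replicate 2 peaks that missed the limits, with 4 and 3 reads.

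The control for expression tracked the restricted introns. Genes of the K562-restricted introns had fewer reads of the other 9 RBPs in HEK293, with a median log2 of HEK293 over K562 of -1.24, and genes of the HEK293-restricted introns had more, at 1.25, while those of the introns marked in all libraries were at 0.08. The control was higher in the marking line for 80.6% of the K562-restricted and 86.3% of the HEK293-restricted introns. For most restricted introns the gene had at least some reads of the other 9 RBPs in the other line, at times few, as in *ADAMTSL4*. They had reads in every HEK293 pool for 358 of the 407 K562-restricted introns (88.0%) and in every K562 pool for 828 of the 963 HEK293-restricted introns (86.0%). For the introns marked in all 5 libraries, these shares were 100% and 99.8%. With at least 10 reads in every pool, the shares of the restricted introns were 83.5% and 79.5%. In these libraries fewer transcripts of a gene and fewer unspliced introns per transcript cannot be told apart.

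**Figure D4:**
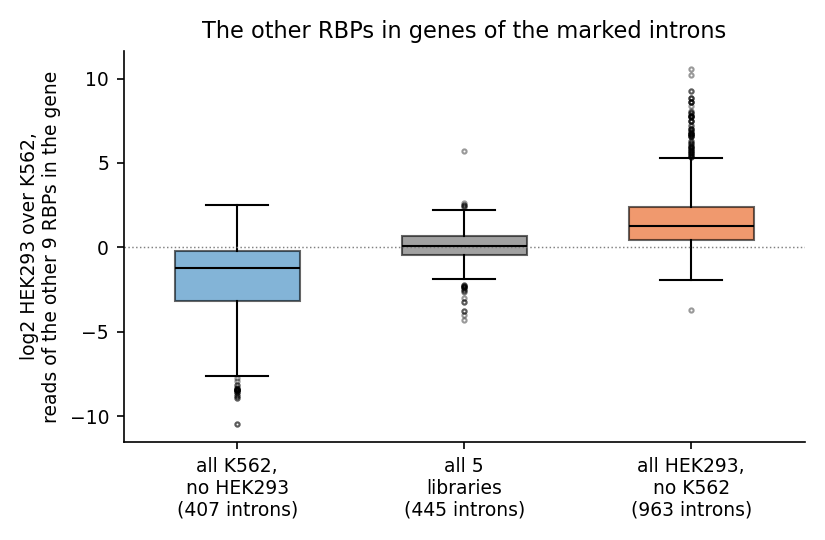
Log2 of HEK293 over K562 for the RPM of the other 9 RBPs in the gene (vertical axis), for introns restricted to K562, marked in all 5 libraries and restricted to HEK293. Boxes hold the middle 50% of introns with the median as a line, whiskers reach 1.5 box lengths and points lie beyond; the medians are -1.24, 0.08 and 1.25.

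Restricted introns were fewer, but did not vanish, among genes with a similar level in both lines. In genes whose other 9 RBPs differed by at most 2-fold between the lines were 163 of the K562-restricted introns (40.0%), 389 of the HEK293-restricted (40.4%) and 320 of those marked in all libraries (71.9%), where the share over introns marked in any library was 58.1%. Within these genes, 22.4% of the introns marked in all K562 libraries were restricted to K562, against 33.3% over all genes, and 28.9% of those marked in both HEK293 libraries were restricted to HEK293, against 41.3%. Across 3028 genes with at least 20 SF3B4 reads over the 5 libraries, the log2 of HEK293 over K562 for SF3B4 and for the other 9 RBPs had a Pearson r of 0.775 and a Spearman coefficient of 0.728; genes are not replicates, and both come from the same pools.

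PRPF8 gave a second spliceosomal readout in the line that SF3B4 did not mark. A PRPF8 peak lay in the first 100 nt of 33.9% of the K562-restricted introns in HEK293, against 60.9% in K562. For the introns marked in all libraries, the shares were 46.7% in HEK293 and 60.7% in K562. For the HEK293-restricted introns, they were 42.6% in K562 and 44.4% in HEK293, which are close to each other. K562 counts a peak in any of 3 libraries and HEK293 in any of 2.

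SF3B4 peaks lay closer to the exon in K562 replicates 1 and 2 than in HEK293. The median centre, in nt from the first base of the exon, was -40 and -38.5 in HEK293 and -26, -28 and -35 in K562. The HEK293 libraries were both upstream of all K562 libraries, and K562 replicate 3 was nearer to HEK293 than to its own line's other libraries. The means were -39.3 ± 1.06 (SD, n = 2) and -29.7 ± 4.73 (SD, n = 3), a difference of -9.58 nt with p = 0.2 in a two-sided exact permutation test, the smallest p that 2 against 3 libraries allow. The most frequent 5-nt bin was from -40 to -35 in HEK293 replicate 1, with 19.2% of the peaks, from -35 to -30 in HEK293 replicate 2 and K562 replicate 3, and from -25 to -20 in K562 replicates 1 and 2. Some other RBPs of the pools also had a negative difference. In the same window it was -13.9 nt for PRPF8 and -7.96 nt for RBFOX2, while it was positive for 6 of the 9. The PRPF8 medians overlapped between the lines, at -55 and -67 in HEK293 and -59, -50.25 and -32 in K562. In the last 50 nt the difference was -6.75 nt for SF3B4 and negative for 8 of the 9 other RBPs, down to -11.7 nt for ZC3H11A. The ZC3H11A medians there rest on 40 to 59 peaks per library, against 2660 to 5997 for SF3B4. Whether the shift is particular to SF3B4 was not tested.

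**Figure D5:**
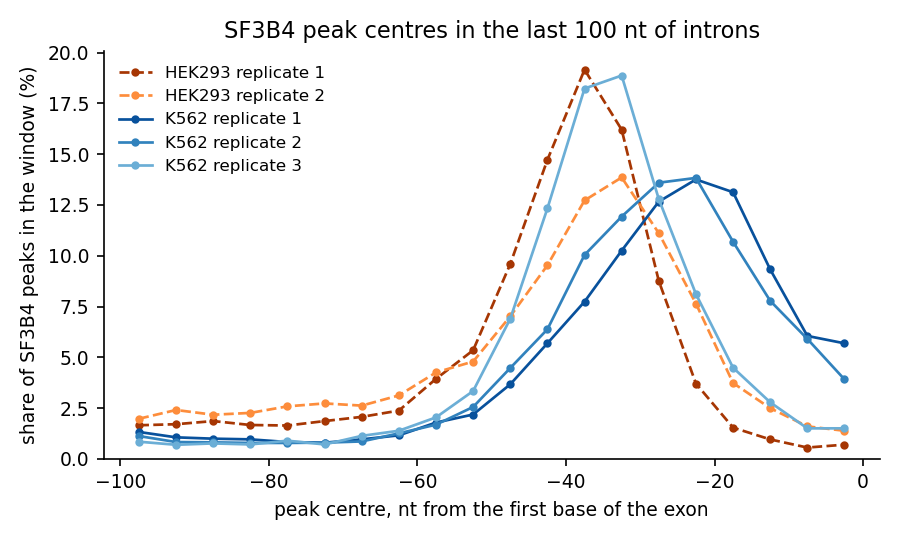
Share of SF3B4 peaks in the last 100 nt of introns (vertical axis) by the position of the peak centre in nt from the first base of the exon (horizontal axis, 5-nt bins), for the HEK293 libraries (dashed) and K562 libraries (solid). K562 replicates 1 and 2 have their maximum between -25 and -20, and the other 3 libraries between -40 and -30.

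The difference lay at the 3' edge of the peaks more than at the 5' edge. The median 5' edge was -56 and -59 in HEK293 and -51, -55 and -53 in K562, while the 3' edge was -25 and -19 in HEK293 and -1, -1 and -18 in K562. Edges of HEK293 were upstream of those of K562 in every library, with a difference of the means of -4.50 nt at the 5' edge and -15.3 nt at the 3' edge (p = 0.2 for each, exact permutation). The median width of these peaks was 32 and 42 nt in HEK293 and 48, 54 and 36 nt in K562, so that in width K562 replicate 3 lay between the HEK293 libraries. The median over the other 9 RBPs of the pool of their median peak width was 38 and 48 nt in HEK293 and 47, 49 and 49 nt in K562. The part of peak width in the positions was not tested.

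Within the 445 introns that all libraries marked, the shift was smaller. The median centres were -38 and -35.5 in HEK293 and -30, -29.5 and -35.5 in K562, so that HEK293 replicate 2 and K562 replicate 3 were equal, and the difference of the means was -5.08 nt (p = 0.4, exact permutation). Per intron, the mean HEK293 centre minus the mean K562 centre had a median of -3.50 nt, being upstream in 304 introns and downstream in 140. Both HEK293 centres were upstream of all K562 centres in 108 introns and downstream of all in 14. The lines were within 10 nt of each other in 321 of the introns (72.1%), where the range over the 3 K562 libraries was itself 12 nt at the median.

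SF3B4 had a larger share of its peaks at 3' splice sites than any other RBP of its pool in every library, and a difference between the lines was not detectable. Of the enriched SF3B4 peaks, 43.96% and 28.2% had their centre in the last 100 nt of an intron in HEK293 and 28.2%, 40.9% and 44.9% in K562. The lines overlapped, with means of 36.1 ± 11.2% (SD, n = 2) and 38.0 ± 8.68% (SD, n = 3) and p = 0.8 in a two-sided exact permutation test. The sign of the difference, -1.93 percentage points, turned to 5.97 without HEK293 replicate 2 and to 1.51 without K562 replicate 3. For the other 9 RBPs the means per line were between 0.957% for FAM120A in HEK293 and 4.37% for PUM2 in K562. The means per line of their median centres in this window were between -79.8 and -47.1 nt. In single libraries the medians ran from -84.5 for PUM2 in HEK293 replicate 2 to -32 for PRPF8 in K562 replicate 3. The latter is nearer to the exon than the SF3B4 median of that pool, -35.

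In the sequence before the exon, the classes were alike in pyrimidines and held more CTNAC than other introns. Pyrimidines made up 73.1% of positions -25 to -5 in the introns marked in all libraries, 73.1% in those restricted to K562 and 71.1% in those restricted to HEK293, against 72.0% over all introns. The letters CTNAC, read on the strand of the transcript between -60 and -16, were in 34.2%, 37.6% and 27.5% of the 3 classes. They were in 17.7% of the unmarked introns of the same genes and 19.9% of all introns, so each class was above both. Introns marked in any library had 26.3%, close to the HEK293-restricted class. Where the letters were present, the adenosine had a median position of -26, -25 and -26 in the 3 classes and -28 over all introns. In the introns marked in all 5 libraries, the median peak centres lay upstream of it in every library. They were at -38 and -35.5 in HEK293 and -30, -29.5 and -35.5 in K562, and include introns without the letters. The last 100 nt had 45.9%, 46.6% and 45.4% G and C, against 40.9% in the unmarked introns of the same genes. Introns whose first bases are those of the minor, U12-type class were marked as well: of 1014, 4.34% and 3.25% in HEK293 and 1.87%, 4.34% and 4.34% in K562. The shares of all introns marked were lower in every library, from 1.17% to 2.98%.

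Among the gene lists, the erythroid and haem genes had restricted introns in K562 alone. Of their 360 introns, 13 were restricted to K562, 0 to HEK293 and 3 were marked in all libraries, where the shares over all introns were 0.16%, 0.378% and 0.174%. Beside the 8 of *TFRC*, the 13 held introns of *EPB41*, a protein of the red cell skeleton (7, 14 and 6 reads), *HBE1*, embryonic globin (5, 13 and 8), and *LYL1*, a haematopoietic transcription factor (4, 10 and 5), each at 0 in HEK293. The *HBE1* intron is annotated with a length of 223617 nt, against a median of 1263 nt over the K562-restricted introns. The other 9 RBPs had 1028 and 962 RPM in these genes in HEK293 and 6530 to 7317 in K562. The 40 sites tested had a median log2 difference of -1.87 for SF3B4 reads, where the median over all 8862 sites was -0.02, and the 30 tested for the ratio to the other RBPs had a median of 0.08, where that over all sites was -0.23. No site of the list passed either fit over all sites. Among the sites with a peak in all 5 libraries, sites of the list were higher in K562 for the reads. One was the shared *TFRC* intron, at a log2 difference of -2.58 (adjusted p = 0.000297 in limma).

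Genes of the splicing machinery were marked in both lines. Of 204 introns of 20 hnRNP genes, 14 were marked in all 5 libraries, in 11 genes, with 4 restricted to K562 and 1 to HEK293. The counts of this and the next lists stand against the same shares over all introns, 0.174% marked in all libraries, 0.16% restricted to K562 and 0.378% to HEK293. Of the 4, the intron of *HNRNPK* was at 0 in HEK293 (6, 14 and 6 reads in K562), while that of *HNRNPH1* had 29 and 35 reads in HEK293 that missed the limits and 28, 43 and 14 in K562. *PTBP1*, a repressor of exons, had 30 and 33 reads in HEK293 and 22, 33 and 28 in K562, and *HNRNPA1* 42 and 51 in HEK293 and 20, 62 and 7 in K562. In the SR protein genes, 5 of 94 introns were marked in all libraries, 2 in K562 alone and 1 in HEK293 alone. *SRSF5* had the most reads, with 85 and 46 in HEK293 and 9, 41 and 15 in K562. Of 51 introns of the CLK kinases, which phosphorylate SR proteins, 1 in *CLK2* was marked in all libraries and 2 in *CLK1* in HEK293 alone. No site of these 3 lists passed either test over all sites. Among the sites with a peak in all 5 libraries, the ratio of *SRSF5* to the other RBPs was higher in HEK293 (log2 1.73, SE 0.53, adjusted p = 0.0404 in limma). For the reads, an intron of *HNRNPH1* marked in all libraries was higher in HEK293 (log2 1.87, SE 0.56, adjusted p = 0.0207 in limma).

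SF3B4 also marked introns of its own complex. Of 289 introns of the U2 snRNP and 3' splice site factors, 6 were marked in all libraries, 4 in K562 alone and 4 in HEK293 alone, and none of 61 tested passed either fit over all sites. The restricted introns of K562 were in *DDX46*, *SF3A3*, *SF3B2* and *U2SURP*, and those of HEK293 in *SF3B1*, *SF3B3*, *SUGP1* and *U2AF2*, all with at most 17 reads in a library. *SF3B1*, the largest SF3b subunit, had 5 and 7 reads in HEK293 and 0 in K562. *SNRPA1*, a protein of the U2 snRNP itself, had 8 and 4 reads in HEK293 and 37, 65 and 21 in K562, while the other 9 RBPs had 289 and 454 reads in the gene in HEK293 and 59, 78 and 117 in K562. In this window SF3B4 was higher in every K562 library at *SNRPA1* and the control lower. The K562 centres lay between -91 and -78.5 nt, near the edge of the window, the HEK293 replicate 2 peak counted was another one at -29.5 nt, and that library had 17 reads touching the last 200 nt. The part of the window in the difference was not tested. Its log2 ratio to the control differed by -3.44 (SE 0.63), with an adjusted p of 0.126 in limma over all sites.

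Ribosomal protein genes were marked in both lines. Of 396 introns in 85 genes, 11 were marked in all libraries, 12 in K562 alone and 5 in HEK293 alone. Of 92 sites tested in the fits over all sites, 1 passed, the snoRNA site in *RPL3* described further on. Limited to sites with a peak in all 5 libraries, more passed. For the reads, sites in *RPL4* and *RPL7A* were higher in K562 and a site in *RPL36* was higher in HEK293. For the ratio, a site in *RPL4* was higher in HEK293. SF3B4 RPM over these introns summed to 9593 and 10395 in HEK293 and 30204, 15894 and 16879 in K562, and those of the other 9 RBPs in the genes to 22952 and 23754 against 30335 to 41637. The K562 libraries were higher in both, and snoRNA sites such as those in *RPL7A* and *RPL4* are part of the first sum.

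Across single sites, few differences between the lines passed a test. SF3B4 RPM were compared with limma on log2 of RPM plus 8.06, over 8862 sites with a peak in at least 2 libraries. None was higher in HEK293 and 4 (0.0451%) were higher in K562, where 1635 sites had an unadjusted p below 0.05. The 4 were in *EIF4G1* and *RPL3* (limma, adjusted p = 0.0108 for both), *MALAT1* (0.0266) and *SNHG29* (0.0492), all at 0 in both HEK293 libraries. For the ratio to the other 9 RBPs in the gene, over 8483 sites, none was higher in HEK293 and 2 (0.0236%) were higher in K562, again *EIF4G1* and *RPL3* (adjusted p = 0.00906, limma), with 902 sites at an unadjusted p below 0.05. All libraries of a line were above those of the other, towards HEK293, at 14.6% of the sites for the reads and 10.8% for the ratio, and towards K562 at 10.3% and 17.8%. These shares are no test, since 1 of the 10 labelings of the libraries gives a separation in each direction. A site with peaks in every library of 1 line and none of the other also enters already separated. For the reads, this held for 870 of the 1290 sites towards HEK293 and 485 of the 917 towards K562. Scaling by the median of the sites with a peak in all 5 libraries moved the median log2 difference of the reads from -0.02 to 0.11 and gave 1 call higher in HEK293 and 5 in K562. Without HEK293 replicate 1 the reads gave 872 and 99 calls, without HEK293 replicate 2 they gave 871 and 77, and without any 1 of the K562 libraries 0. With 1 HEK293 library left, the spread comes from K562 alone and the lone library is assumed to vary like it, so these counts say nothing about stability. For the ratio, leaving out any 1 library gave 0 calls.

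The sites in *EIF4G1*, *RPL3* and *SNHG29* were peaks on snoRNAs at the edge of the window. Their K562 centres lay between -98.5 and -84 nt, at SNORD66, SNORD83B and SNORD49B. In HEK293, SF3B4 peaks touching the last 200 nt held 178 and 322 reads in *EIF4G1*, 150 and 574 in *RPL3* and 52 and 56 in *SNHG29*, with centres outside the last 100 nt. The zeros of HEK293 at these sites are thus set by the window. With peaks on small RNAs left out, no site passed either fit, and the *MALAT1* site had an adjusted p of 0.0543 for the reads (limma) and, in the ratio over all sites, of 0.241.

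No ratio was higher in HEK293 after adjustment, and the lowest adjusted p was 0.126 (limma). Of the 6 sites with the lowest p in that direction, 4 had no SF3B4 peak listed in HEK293 and few reads of the other RBPs there, so that the ratio rests on the control. The other two were in *ALDH1A2*, a retinaldehyde dehydrogenase, with 3 and 3 reads in HEK293 and 0 in K562, and *RPL21*, with 9 and 16 reads in HEK293 and 0 in K562, where 170, 246 and 117 SF3B4 reads lay in the last 200 nt, beside SNORD102. Towards K562, *CKB*, a creatine kinase, had 8, 15 and 11 reads and 0 in HEK293, where the other 9 RBPs were higher by 2.17 on the log2 scale (adjusted p of the ratio 0.0798, limma). HEK293 replicate 1 had 28 reads in the last 200 nt of that intron, outside the window. *LAMB1*, a laminin chain, had 4, 8 and 6 reads against 0 with the control higher in HEK293 by 2.06 (adjusted p = 0.126, limma), and HEK293 replicate 2 had 4 reads in the last 200 nt of that intron. These sites have too few reads for a firm statement.

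Limited to sites with a peak in all 5 libraries, where no library is at 0, more sites passed. Of 657 sites, 7 (1.07%) were higher in HEK293 and 35 (5.33%) in K562 for the reads, with 11 of the 35 on or near annotated small RNAs. The libraries of the lines did not overlap at 7.61% of the sites towards HEK293 and 27.5% towards K562. The median log2 difference over the 657 sites was itself -0.28. In this fit the SE came mostly from the spread pooled over sites of similar level and little from a site's own libraries. The SE and p therefore do not measure the spread at a single site. *CCDC14* passed (adjusted p = 0.0154 in limma) though its lines overlapped, at 492 and 131 RPM in HEK293 and 27.2, 38.0 and 194 in K562. *VAV2* had 256 and 157 RPM in HEK293 and 43.5, 14.6 and 32.3 in K562, a log2 difference of 2.53 (SE 0.56, adjusted p = 0.000325 in limma). *ZRANB2*, a zinc finger protein of the spliceosome, had 40 and 32 reads in HEK293 and 5, 4 and 6 in K562 (2.09, SE 0.55). In *VAV2* the other 9 RBPs had 0, 12 and 6 reads in K562. The lines overlapped at neither site. Towards K562, *MICALL2*, an effector of Rab GTPases, had 24.6 and 11.9 RPM in HEK293 and 245, 196 and 411 in K562 (-3.45, SE 0.56), and *GIPR*, an incretin receptor, 19.7 and 8.91 against 212, 123 and 105 (-2.77, SE 0.56). The *TFRC* intron marked in all libraries was among them, at -2.58 (SE 0.56, adjusted p = 0.000297 in limma).

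Against the other 9 RBPs in the gene, 9 of 655 such sites (1.37%) were higher in HEK293 and 17 (2.6%) in K562. The ratios of the lines did not overlap at 8.4% of the sites towards HEK293 and 30.1% towards K562, and the median log2 ratio difference over the 655 sites was -0.36. *SNRPA1* had the lowest p, with a log2 ratio difference of -3.44 (SE 0.49, adjusted p = 3.61e-07 in limma), at the site where HEK293 replicate 2 had 17 reads in the last 200 nt and 4 in the peak counted. In the fit over all sites, the same difference had an SE of 0.63 and an adjusted p of 0.126 (limma). Here too the SE is largely pooled over sites. *BAHCC1*, a chromatin protein, had 34.4 and 14.8 SF3B4 RPM in HEK293 and 49.0, 46.8 and 48.4 in K562, while its control was higher in HEK293 by 2.18, giving a ratio difference of -2.92 (SE 0.52). Towards HEK293, *HMGCS1*, an enzyme of cholesterol synthesis, had 14.8 and 20.8 RPM in HEK293 and 76.2, 120 and 88.7 in K562, with a log2 control difference of -4.61, giving a ratio difference of 2.47 (SE 0.51). The *RPL4* site that only K562 marked within the limits was higher in HEK293 for the ratio, by 2.32 (SE 0.51). Its HEK293 peak centres lay at the boundary with the exon, at -5 and -0.5 nt, so it may not report on an intron. For *MICALL2*, *GIPR* and the *TFRC* intron, the ratio differed by -0.55 (SE 0.51), 0.56 (SE 0.50) and -0.19 (SE 0.50), with adjusted p from 0.541 to 0.874 in limma, so a difference beyond the other RBPs of the gene was not detectable there.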

How the data were processed

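SF3B4 and 9 other RBPs were measured by 10plex ABC in 2 HEK293 and 3 K562 samples, grouped by their titles. The authors trimmed reads with cutadapt 2.8, mapped them to GRCh38 with STAR 2.7.6 and called peaks per library with CLIPper. The deposited CLIPper lists hold a p-value per peak and a score column. The deposited merged peaks hold −log10 of P, which ended at 400, and the log2 fold over an external background that is not named per library; values against the other barcodes of the pool were not used. Whole reads per peak and its background were solved from the log2 fold together with P for all peaks. Sites without a listed peak were given no reads.

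Introns of at least 200 nt came from GENCODE 44 (the authors used 35). Of 3' splice sites within 100 nt, the most used was kept (255023 of 268344), a choice made after the planning. The reads in peaks per library, 123997 to 341768 for SF3B4, are the depth: 3 reads in the shallowest are 24.2 RPM, and PCR and counting error bound every small count. Levels were compared with limma 3.58.1 (R 4.3.3), with a trend, on log2(RPM + 8.06), over sites with a peak in at least 2 libraries, with Benjamini-Hochberg adjustment at 0.05. The ratio subtracts the log2 level of the other 9 RBPs in the gene. The scripts were tested on simulated data. Positions and shares were compared by exact permutation of the 5 libraries (10 labelings). Python 3.11.15 was used otherwise.

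The members and lists were chosen with earlier results of these data known. Named were the 5 introns marked in all libraries with the highest mean RPM; per line the 6 sites with the lowest p of the ratio; per line the 5 restricted introns with the highest RPM, without any peak in the other line and with other RBPs present there; and 5 genes with an intron restricted to each line. The introns away from small RNAs, the sites with a peak in all 5 libraries and the sites of *TFRC*, *SRSF5*, *SNRPA1*, *SF3B1* and the other list members were chosen after values were seen. Alternatives were the limits, the window, the intron length, the floor, the pseudocount, the scaling, the control and each library left out; those on small RNAs, touching peaks, distinct splice sites and the same-site control were added after seeing the data. Sites on chromosome 8 are in the counts and not named here.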

Additional observations from a re-analysis of the deposited data

How the results depend on the processing

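The 3 counts of introns depended on the limits. The introns marked in all 5 libraries were 242 under stricter limits (P below 1e-05 and fold above 16), 292 in the last 50 nt, 224 with 1 floor of RPM and 282 with the floor and no limits. Those restricted to K562 were 217 under stricter limits. Those restricted to HEK293 were 625 in the last 50 nt and 154 and 186 with the floor, with and without the limits. The share of K562 introns marked in both HEK293 libraries was 40.99% with all merged peaks, 29.2% in the last 50 nt and 27.3% with the floor. The reverse share was 23.1% with all merged peaks, 13.5% under stricter limits, 21.5% with any overlap of the window, and 37.3% and 37.8% with the floor. With 1 library left out, the counts ranged from 509 to 701 (all libraries), 523 to 1209 (K562) and 1035 to 4430 (HEK293), the shares from 24.7% to 57.3% and from 9.23% to 29.6%, the position difference from -12.25 to -7.75 nt and the difference in the share of peaks at 3' splice sites from -9.83 to 5.97 percentage points. That last difference was 1.99 under stricter limits, -11.0 with all merged peaks and -6.74 in the last 50 nt. Genes of restricted introns with the other RBPs present were 83.5% (K562) and 79.5% (HEK293) at 10 reads or more, 92.0% and 77.9% with the floor, and 82.8% for HEK293 introns without any K562 peak; PRPF8 peaks anywhere in the intron were at 42.8% and 47.5%. Calls for the reads, 4 as reported, were 2 with a pseudocount 4 times larger, 1230 with one 4 times smaller, 42 over sites in all 5 libraries, 39 over sites in at least 1, 0 without small RNAs, 2 for touching peaks and 0 to 971 with 1 library left out. Calls for the ratio, 2 as reported, were 658 and 0 with the larger and smaller pseudocount, 26 over sites in all 5 libraries, 490 over sites in at least 1, 0 without small RNAs, 1 for touching peaks, 4 with PRPF8 as control, 299 for the authors' log2 fold over sites in all 5 libraries, 1 with the control at the same site and 0 to 0 with 1 library left out. With the replicate number as a block (replicate block), both fits gave 0 calls, with 1217 and 659 sites at an unadjusted p below 0.05 in limma. The deviations of equal numbers correlated at -0.108 and -0.047, so the samples share only a number. The numbers that the titles call original share 1 number, of HEK293 replicate 1 and K562 replicate 3 (correlation 0.063), too few for a block. The causes were not tested.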
